A study of Mus musculus with 8 samples.

Results

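The genes described here make the extracellular matrix of the dermis or mark the fibroblasts that deposit it: collagens, laminins, fibulins and elastic fibre proteins, lysyl oxidases, matricellular glycoproteins, small leucine-rich proteoglycans, mesenchymal transcription factors and cell surface markers. They are a list of 47 gene symbols grouped by function, with no threshold on any measured value, and were matched by symbol to probe sets that carry a single gene symbol. Of the 47, 46 were measured, out of 22180 measured genes in all; the fibrillin gene Fbn1 had no such probe set and was not analysed here. They were followed in 8 Affymetrix whole-transcript arrays of mouse melanocyte cultures. All cultures carried floxed Atg7 alleles, the gene for an E1-like enzyme needed for autophagy. The WT cultures (Atg7 f/f) had no Cre; the KO cultures (Atg7 f/f Tyr::Cre) also carried Cre recombinase driven by the tyrosinase promoter, which is active in pigment cells, so other cells in a KO culture would be expected to keep Atg7. Pups 1 to 5 days old were the source, and cells stayed in MGM-2 medium for 22 days before they received 20 J/cm² of UVA-1, the long-wave band of ultraviolet A, or a sham treatment; RNA was taken 6 h later. The 4 groups, WT and KO cultures after sham or after UVA, held 2 arrays each, labelled female and numbered 1 and 2 in every group, and the submitters describe them as biological duplicates without saying what a number stands for. The sham and UVA arrays of 1 genotype and 1 number are called a culture below, although the labels do not say that they came from the same dish.

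Fibroblasts secrete fibrillar collagens as procollagens that are trimmed, bundled with the help of small proteoglycans such as decorin and lumican, and crosslinked by lysyl oxidases. Basement membranes, which lie between epithelium and dermis and around vessels and nerves, are built on networks of collagen IV and laminins linked by nidogen. Fibroblasts are common companions of melanocytes in primary cultures from skin, and melanocytes themselves make some of these proteins, SPARC and basement membrane components among them, so no single gene of the list is a marker of 1 cell type. In bulk RNA such as this, fewer cells of a type and less RNA per cell cannot be told apart.

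The array medians were 110 to 115 on the deposited linear intensity scale, and 8 arrays limit the precision of every value. All levels below are log2 intensities; a difference of 1 is a doubling. Pigment genes were bright in every culture: Tyrp1, Dct, Pmel and Mlana read between 13.15 and 14.19 on all 8 arrays. They belong to a list of 16 measured melanocyte genes. The median of that list was 10.60 to 10.81 in number 1 and 11.65 to 12.14 in number 2. These levels show that pigment cells were present and do not give their share. The Atg7 probe set read 9.65 to 9.97 in the number 1 arrays and 9.22 to 9.75 in the number 2 arrays, with KO below WT in each number; the table used does not say which exons its probes cover, so it cannot check the deletion.

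The level of these genes depended first on the replicate number. In 39 of the 46 genes all 4 number 1 arrays lay above all 4 number 2 arrays, a pattern met in 15.5% of all genes. Within number 2, KO lay above WT, so that 34 of the 46 followed a single order in which every number 1 array was higher than both number 2 KO arrays, and these were higher than both number 2 WT arrays. That order was found in 6.36% of all genes. The median of the 46 differences between number 2 and number 1 was -1.57 in WT, which is 2.96-fold lower, and -0.83 in KO, 1.77-fold lower, against 0.01 and 0.00 over all genes. The genotype difference had a median of -0.03 in number 1 and 0.87 in number 2, the latter a 1.83-fold higher level in KO, against 0.00 and -0.02 over all genes. A number holds 1 culture of each genotype, so these within-number values carry no test.

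**Figure D1:**
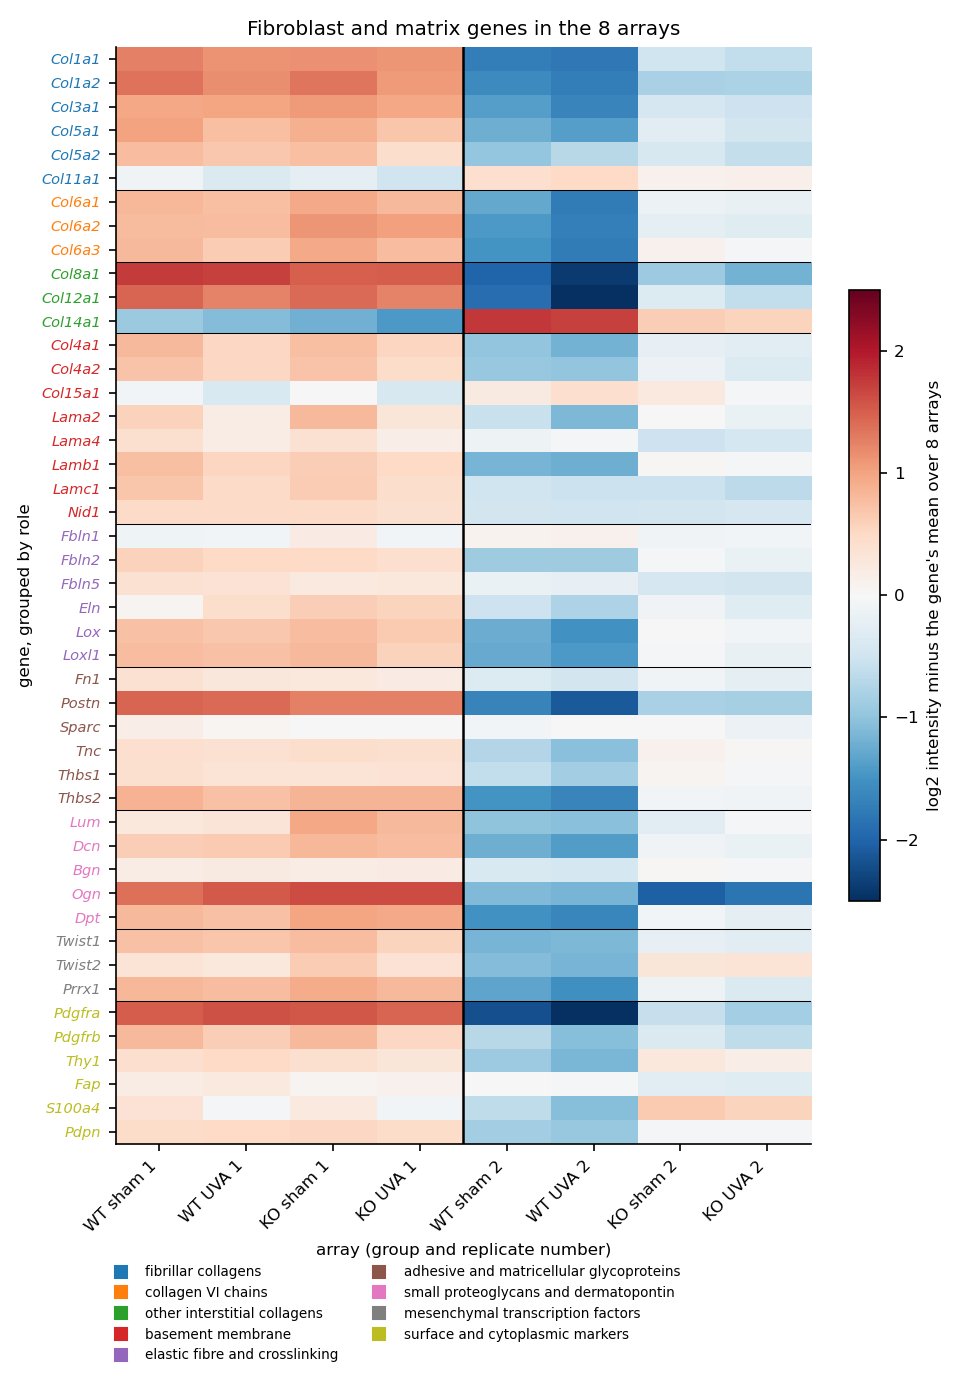
Log2 intensity of each of the 46 genes (rows, grouped by role with names coloured by role) in each of the 8 arrays (columns), shown as the difference from the gene's own mean over the 8 arrays; the vertical line parts number 1 from number 2. Most rows run red in the 4 number 1 arrays, dark blue in the number 2 WT arrays and pale blue in the number 2 KO arrays, and Col11a1 and Col14a1 run the other way.

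Type I collagen is the main fibrillar collagen of skin. Col1a1, its alpha 1 chain, read 12.84 and 12.71 in WT (sham, then UVA) and 12.72 and 12.69 in KO of number 1, and 9.85, 9.81, 11.08 and 10.98 in the same order in number 2. All runs of 4 values below keep this order. The number 1 arrays were alike in both genotypes, while in number 2 both KO arrays stood clear of both WT arrays. As group means this gave 11.34 ± 2.11 in WT sham and 11.90 ± 1.16 in KO sham (SD, n = 2), so the spread within a group was larger than the difference between the genotypes. WT cultures of number 1 had 7.71-fold more Col1a1 signal than those of number 2, and KO cultures 3.20-fold more. Col1a2, the partner chain, followed the same order, with 12.07, 11.87, 12.05 and 11.79 in number 1, and in number 2 with WT sham at 9.12 and WT UVA below it, and KO at 9.91 and 9.93. Col3a1, the chain of type III collagen that co-assembles with type I in young skin, read 10.46 to 10.56 in number 1, 8.13 and 7.85 in number 2 WT and 9.09 and 8.99 in number 2 KO. Its number 2 genotype difference was 1.05, against 0.33 for Col5a2, the gene next to it on the chromosome, and 0.94 for Col5a1; both Col5 genes encode chains of type V collagen, which seeds type I fibrils.

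Col11a1, a minor fibrillar chain best known from cartilage, went the other way: it read 9.91, 9.65, 9.78 and 9.51 in number 1 and 10.42, 10.51, 10.11 and 10.13 in number 2. Col14a1, a fibril-associated collagen of the dermis, showed the same inverse order with a wider range, at 8.13, 7.97, 7.85 and 7.63 in number 1 and 10.83, 10.76, 9.67 and 9.61 in number 2. These were the only 2 of the 46 with all number 1 arrays below all number 2 arrays (16.6% of all genes) and with KO between WT of number 2 and all of number 1 (8.48% of all genes). WT of number 2 had 6.70-fold more Col14a1 signal than WT of number 1. Within number 2 Col14a1 was 2.23-fold lower in KO, and it was the 1 gene of the 46 at least 2-fold lower there (0.0631% of all genes).

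Collagen VI forms beaded microfilaments around cells, and its 3 measured chains behaved alike. Col6a3 read 10.52, 10.35, 10.65 and 10.49 in number 1 and 8.22, 7.97, 9.81 and 9.69 in number 2, so the number 2 KO arrays approached the number 1 level and the number 2 WT arrays did not. KO was 3.15-fold above WT in number 2 for Col6a3, 2.55-fold for Col6a1 and 2.47-fold for Col6a2, and the number 1 differences were 0.13, 0.09 and 0.28. All 3 chains were higher in KO in each of the 4 matched pairs of arrays (sham and UVA of both numbers), as were 11 of the 46 genes (7.65% of all genes). Col6a1 and Col6a2 are adjacent genes; Col6a3 lies on another chromosome.

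Among the other interstitial collagens, Col12a1, which decorates collagen I fibrils, and Col8a1, a short-chain collagen that forms hexagonal networks, had some of the widest ranges of the list. Col12a1 read 13.25, 13.02, 13.21 and 13.03 in number 1 and 9.89, 9.31, 11.44 and 11.18 in number 2, a 3.27-fold genotype difference in number 2 beside a number 1 difference of -0.02. Col8a1 read 11.84 to 12.10 in number 1, 8.34 and 7.95 in number 2 WT and 9.43 and 9.15 in number 2 KO. Its WT cultures differed 15.2-fold between the numbers, the widest gap of the 46 genes.

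Basement membrane genes spanned a narrower range, with a median number 2 genotype difference of 0.38. Lamb1, the beta 1 chain shared by many laminins, read 11.79 to 12.04 in number 1, 10.13 and 10.08 in number 2 WT and 11.33 and 11.25 in number 2 KO. Lamc1, the gamma 1 chain that pairs with it, read 11.86 to 12.12 in number 1 and 10.75 to 10.92 in number 2, where the genotype difference was -0.08, whereas Lamb1 was 2.27-fold higher in KO there. Nid1, which links laminin to collagen IV, likewise differed between the numbers (13.60 to 13.69 against 12.71 to 12.78) and hardly between the genotypes, by 0.05 in number 2. Lama2, the alpha chain of muscle and nerve laminin, read 10.97, 10.57, 11.21 and 10.71 in number 1 and 9.84, 9.27, 10.39 and 10.22 in number 2, with KO above WT in all 4 pairs. Lama4, an alpha chain of vascular and mesenchymal laminin, had the reverse genotype sign, at -0.02 in number 1 and -0.39 in number 2. Col4a1 and Col4a2, the head-to-head genes for the main collagen IV chains, differed by 0.85 and 0.72 in number 2, and Col15a1, whose collagen bridges basement membrane and matrix, read 7.19 to 8.02 with the numbers overlapping.

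Lox and Loxl1 encode lysyl oxidases, which crosslink collagen and elastin. Lox read 13.77, 13.71, 13.80 and 13.68 in number 1 and 11.78, 11.52, 13.02 and 12.96 in number 2, so its genotype difference was 0.00 in number 1 and 1.34 in number 2. Loxl1 gave -0.06 and 1.24. Eln, the elastin gene, read 7.38, 7.76, 7.93 and 7.88 in number 1 and 6.81, 6.54, 7.24 and 7.01 in number 2, the one gene of this group that was higher in KO in all 4 pairs. The fibulins, which bind elastin and basement membrane proteins, did not behave alike. Fbln2 followed the main order (13.21 to 13.37, then 12.63 and 12.75 in KO and 11.91 in both WT arrays of number 2), Fbln1 stayed between 9.63 and 9.93 with the numbers overlapping, and Fbln5 was lower in KO in all 4 pairs, by -0.13 in number 1 and -0.26 in number 2 on average. Fbln5 shared this sign in all 4 pairs with 5 other genes, Col11a1, Col14a1, Lama4, Lamc1 and Fap, 6 of the 46 in all (7.78% of all genes).

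Of the adhesive and matricellular glycoproteins, Thbs2, an antiangiogenic thrombospondin, read 13.67 to 13.80 in number 1, 11.44 and 11.28 in number 2 WT and 12.87 and 12.85 in number 2 KO. Postn, the gene for periostin, read 12.96 to 13.16 in number 1, 10.03 and 9.59 in number 2 WT and 10.89 and 10.87 in number 2 KO, which left its KO cultures 4.23-fold apart between the numbers. Tnc and Thbs1, for tenascin C and thrombospondin 1, followed with number 2 genotype differences of 0.96 and 0.75, and Fn1, for fibronectin, with 0.23. Sparc, which encodes a collagen-binding glycoprotein also made by melanocytes, was the flattest gene of the group, at 13.07 to 13.38 over all 8 arrays.

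The small proteoglycans bind collagen fibrils and set their diameter. Lum, the gene for lumican, read 8.86, 8.92, 9.57 and 9.40 in number 1 and 7.59, 7.55, 8.34 and 8.57 in number 2: it was the gene with the largest number 1 genotype difference (0.59), and its number 2 difference was larger (0.88). The group means were 8.23 ± 0.90 and 8.24 ± 0.97 in WT after sham and UVA, and 8.95 ± 0.87 and 8.98 ± 0.59 in KO (SD, n = 2). Dcn, for decorin, which lies next to Lum on the chromosome, read 12.94, 12.97, 13.15 and 13.09 in number 1 and 11.09, 10.93, 12.23 and 12.15 in number 2, and Dpt, for the collagen-binding protein dermatopontin, 13.06, 13.00, 13.23 and 13.20 and then 10.73, 10.63, 12.18 and 12.01. In these 3 genes KO exceeded WT within both numbers. Bgn, for biglycan, differed least between the genotypes, with differences of 0.00 and 0.42. Ogn, for osteoglycin, was the exception: it read 9.74 to 10.01 in number 1, 7.26 and 7.20 in number 2 WT and 6.32 and 6.54 in number 2 KO, so in number 2 KO was 1.74-fold below WT, and its KO cultures differed 11.9-fold between the numbers.

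**Figure D2:**
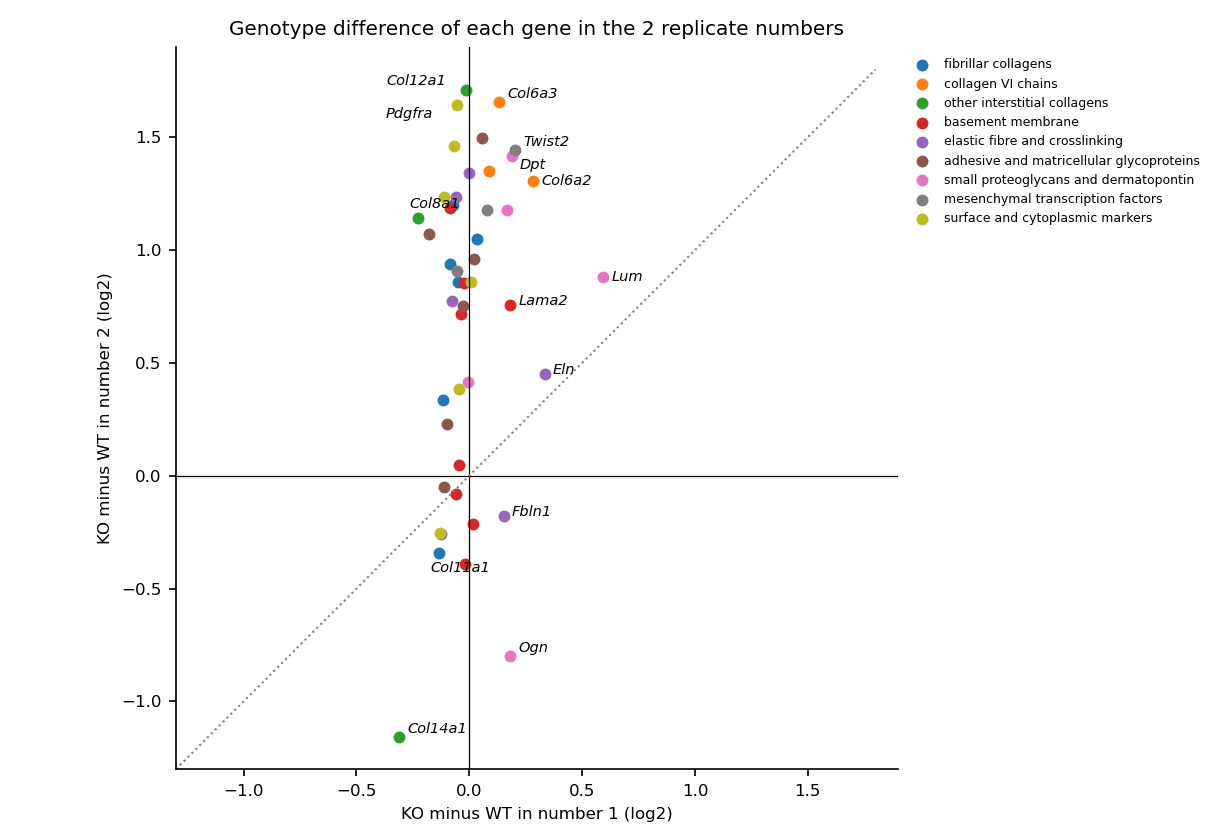
KO minus WT of each of the 46 genes (log2, mean of the sham and UVA pairs) in number 1 (horizontal axis) and in number 2 (vertical axis), on equal scales, coloured by role, with a dotted line where both are equal. The points form a vertical band near 0 on the horizontal axis that reaches 1.71 (Col12a1) and -1.16 (Col14a1) on the vertical axis, and Lum (0.59 and 0.88) and Eln (0.33 and 0.45) lie farthest to the right.

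The transcription factors Twist1, Twist2 and Prrx1 are active in mesenchyme and dermal fibroblasts. Twist2 read 9.96, 9.87, 10.25 and 9.97 in number 1 and 8.53, 8.44, 9.91 and 9.95 in number 2, so its number 2 KO arrays reached the level of the number 1 WT arrays while the number 2 WT arrays did not. Prrx1 read 12.17 to 12.33 in number 1, 10.08 and 9.85 in number 2 WT and 11.26 and 11.03 in number 2 KO, and Twist1 9.60 to 9.82, 7.88 and 7.92, and 8.85 and 8.77. Pdgfra, the receptor for platelet-derived growth factor that is widely used to identify fibroblasts, read 12.52, 12.60, 12.55 and 12.47 in number 1 and 8.80, 8.50, 10.43 and 10.16 in number 2. Its WT cultures differed 15.1-fold between the numbers, and KO was 3.12-fold above WT in number 2. Pdgfrb, the related receptor that also marks mural cells, had a number 2 genotype difference of 0.38, and Thy1 and Pdpn, surface glycoproteins of fibroblasts, differences of 1.23 and 0.86. S100a4, a calcium-binding protein found in fibroblasts and in other motile cells, read 10.87, 10.46, 10.75 and 10.44 in number 1 and 9.88, 9.44, 11.16 and 11.08 in number 2, so its number 2 KO arrays were the highest of the 8. Fap, a protease of activated fibroblasts, read low on all arrays (5.70 to 6.25) and lower in KO in all 4 pairs.

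**Figure D3:**
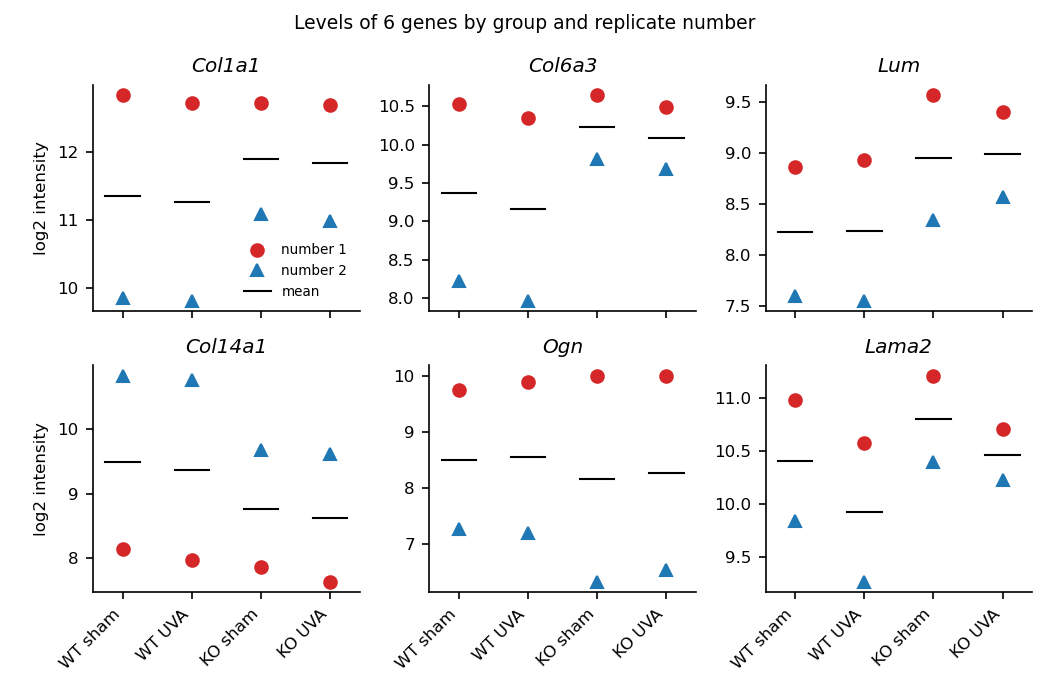
Log2 intensity of Col1a1, Col6a3, Lum, Col14a1, Ogn and Lama2 in the 4 groups; red circles are number 1, blue triangles number 2, and the black line is the mean of the 2 arrays. The vertical axes differ between panels and do not start at 0. In WT sham, Col1a1 reads 12.84 in number 1 and 9.85 in number 2, KO lies above WT in both colours for Lum, and UVA lies below sham in both colours for Lama2.

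Counted over the list, both KO arrays lay above both WT arrays in number 2 for 36 of the 46 genes (20.4% of all genes) and below them for 7 (26.3% of all genes): Col11a1, Col14a1, Lama4, Fbln1, Fbln5, Ogn and Fap. In 19 genes the number 2 difference was at least 2-fold in favour of KO (1.31% of all genes), among them all 3 collagen VI chains, Col1a1, Pdgfra, Thy1 and S100a4. In number 1 the same criteria gave 8 genes above (14.9% of all genes) and 9 below (14.2%), with 0 at least 2-fold above (0.0541%) or below (0%). The 8 were Col6a2, Fbln1, Eln, Lum, Dcn, Ogn, Dpt and Twist2, which include 4 of the 5 small proteoglycan and dermatopontin genes, and the 9 were Col8a1, Col14a1, Nid1, Fbln5, Fn1, Postn, Sparc, Thy1 and Fap. In 0 of the 46 did all 4 KO arrays lie above, or below, all 4 WT arrays (0.866% and 0.942% of all genes). That pattern cannot occur in a gene whose number 1 and number 2 arrays do not overlap, as in most of the 46. In WT, 17 genes were at least 4-fold higher in number 1 than in number 2 (1.33% of all genes); in KO, 5 were (0.613%), namely Col1a2, Col8a1, Postn, Ogn and Pdgfra.

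The comparison of KO with WT asks what accompanies loss of Atg7, and was tested over all 8 arrays with limma, the replicate number as a block and Benjamini-Hochberg adjustment over all genes. The p-values measure only the spread between these arrays. Averaged over sham and UVA, 36 of the 46 genes had a positive difference (45.8% of all genes) and 10 a negative one. The median over the 46 was 0.43, beside -0.01 over all genes. Over the alternatives tried, each of which kept arrays of both numbers, the median ran from 0.27 to 0.61. Of the 46, 0 passed at an adjusted p of 0.05 (7 of all genes did, 0.0316%). At an unadjusted p under 0.05, 18 were higher (4.93% of all genes) and 4 lower (3.95%). Lum had the smallest adjusted p, 0.180, with a difference of 0.74 (SE 0.10). The largest differences were those of Col6a3 (0.89, SE 0.29, adjusted p = 0.522), Col12a1 (0.85, SE 0.33, 0.548), Twist2 (0.82, SE 0.25, 0.496), Dpt (0.80, SE 0.24, 0.495), Col6a2 (0.79, SE 0.20, 0.452) and Pdgfra (0.79, SE 0.33, 0.563). Negative differences were led by Col14a1 (-0.74, SE 0.17, 0.410).

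By role, all 3 collagen VI chains and all 3 transcription factors had positive differences, with medians of 0.79 and 0.63, and 4 of the 5 small proteoglycan and dermatopontin genes (median 0.67). In the remaining roles the positive genes were 5 of 6 fibrillar collagens (median 0.42; Col1a1 0.56, Col3a1 0.54, Col5a1 0.43), 2 of 3 other interstitial collagens (0.46; Col8a1 0.46) and 5 of 8 basement membrane genes (0.17; Lamb1 0.55, Lama2 0.47, Col4a1 0.42). They were also 4 of 6 elastic fibre and crosslinking genes (0.37; Lox 0.67, Loxl1 0.59, Eln 0.39), 5 of 6 adhesive glycoproteins (0.40; Thbs2 0.78, Tnc 0.49, Postn 0.45) and 5 of 6 surface and cytoplasmic markers (0.50; S100a4 0.70, Thy1 0.56). The remaining genes of the largest 3 in each role were Col6a1 (0.72), Dcn (0.67), Prrx1 (0.63) and Twist1 (0.43). None of these passed.

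Taken separately, the genotype difference after sham was positive in 38 genes (median 0.41) and after UVA in 34 (median 0.45); over all genes both medians were close to 0. Limma with the number as a block called 0 of the 46 in either comparison and 0 of all genes (0%). At an unadjusted p under 0.05, 6 were higher and 2 lower after sham (3.17% and 2.38% of all genes), and 4 higher and 2 lower after UVA (2.07% and 2.11%). Lum differed by 0.72 after sham and 0.75 after UVA (SE 0.14 in both, adjusted p = 0.813 and 0.957), and Col14a1 by -0.72 and -0.75 (SE 0.25 in both). Both arrays of a culture entered these fits separately; with their mean as 1 value per culture, limma with the block again called 0 of the 46 (smallest adjusted p 0.996) and 0 of all genes (0%). At an unadjusted p under 0.05 in that fit, 4 were higher (Lum, Eln, Col6a2 and Lama2; 1.94% of all genes) and 1, Col14a1, lower (1.38%). Without the block, limma called 0 of the 46 and 0 of all genes in the averaged genotype comparison, and 0 of the 46 reached an unadjusted p under 0.05 (2.33% of all genes).

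The promoters of the 4 genes with the largest averaged genotype difference for which RefSeq's GRCm38.p6 promoter table holds an entry are shown so that their sequence can be read beside that shared difference; Col12a1 has no entry there. Each runs from 250 bases before to 50 bases after the annotated start, 5′ to 3′ on the gene's own strand, and capitals mark matches, on either strand, to the CCAAT box (CCAAT), the TATA box (TATAAA), the GC box (GGGCGG) or the AP-1 motif (TGANTCA). A GC box on the other strand reads CCGCCC. They lie at chr1:90843922-90844221 (minus strand) for Col6a3, chr1:91801211-91801510 (plus) for Twist2, chr1:164796413-164796712 (plus) for Dpt and chr10:76623355-76623654 (minus) for Col6a2.
Col6a3: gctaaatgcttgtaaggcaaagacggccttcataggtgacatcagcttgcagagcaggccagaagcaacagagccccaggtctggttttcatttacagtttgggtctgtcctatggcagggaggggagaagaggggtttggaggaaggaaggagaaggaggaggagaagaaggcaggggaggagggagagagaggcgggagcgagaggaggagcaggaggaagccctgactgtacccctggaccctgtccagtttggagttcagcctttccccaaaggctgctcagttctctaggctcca
Twist2: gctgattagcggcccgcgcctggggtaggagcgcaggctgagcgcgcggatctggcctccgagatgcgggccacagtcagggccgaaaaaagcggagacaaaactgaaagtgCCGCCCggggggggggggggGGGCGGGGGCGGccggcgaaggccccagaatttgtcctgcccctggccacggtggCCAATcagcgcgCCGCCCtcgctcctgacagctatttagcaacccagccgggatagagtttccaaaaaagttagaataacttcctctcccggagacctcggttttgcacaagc
Dpt: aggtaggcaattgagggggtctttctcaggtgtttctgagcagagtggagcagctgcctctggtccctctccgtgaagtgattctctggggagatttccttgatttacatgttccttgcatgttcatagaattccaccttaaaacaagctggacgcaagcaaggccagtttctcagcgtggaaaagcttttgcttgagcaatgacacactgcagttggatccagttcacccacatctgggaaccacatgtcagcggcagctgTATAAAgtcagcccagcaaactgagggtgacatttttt
Col6a2: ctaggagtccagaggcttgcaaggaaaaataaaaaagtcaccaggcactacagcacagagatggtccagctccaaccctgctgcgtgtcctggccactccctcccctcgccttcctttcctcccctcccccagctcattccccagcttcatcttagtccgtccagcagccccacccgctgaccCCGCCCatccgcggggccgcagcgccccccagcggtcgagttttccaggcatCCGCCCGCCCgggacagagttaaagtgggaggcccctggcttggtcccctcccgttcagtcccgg

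The 4 windows share no motif of the 4 searched. The Twist2 window holds 1 CCAAT, 63 bases upstream of the start, and 4 GC box matches. The Col6a2 window holds 3 GC box matches, 2 of them overlapping. The Dpt window holds 1 TATAAA that begins at base 13, counting the annotated start as base 1. The Col6a3 window holds none. Over the list, 31 of the 47 genes have a promoter in the table. Of these, 11 hold CCAAT (37.9% of all 27025 promoters do), 7 hold TATAAA (14.2%), 18 hold GGGCGG (35.9%) and 1, Col6a1, holds TGANTCA (7.93%). Col4a1 and Col4a2, whose windows overlap by 78 bases, are counted separately among those with CCAAT and those with GGGCGG. Fbn1, which was not measured, is among those with GGGCGG. A match describes letters in the window and shows no binding.

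Most genes of the list read slightly lower after UVA-1 than after sham. Averaged over genotypes, 43 of the 46 genes read lower after UVA than after sham (48.8% of all genes) and 3 higher, Lum, Ogn and Fap (50.9% of all genes). In 22 genes UVA lay below sham in each of the 4 cultures (9.08% of all genes), and in 0 above in each (10.6%). The shifts were small: the median over the 46 genes was -0.07 in WT and -0.12 in KO of number 1 and -0.13 and -0.09 in number 2, against 0.00 to 0.01 over all genes. In the fit with the replicate number as block the averaged median was -0.11, and leaving out 1 array moved it between -0.28 and 0.06. Its sign turned without KO UVA 1 (0.01), without KO sham 2 (0.01) and without WT UVA 2 (0.06). In these 8 fits, 114 of the 368 single-gene differences changed sign. Dropping 1 array unbalances the fit, so genotype differences that vary between the numbers enter its UVA difference. With each culture as a block and 1 whole culture left out, 41 to 43 of the 46 genes read lower. The medians then ran from -0.12 to -0.09.

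**Figure D4:**
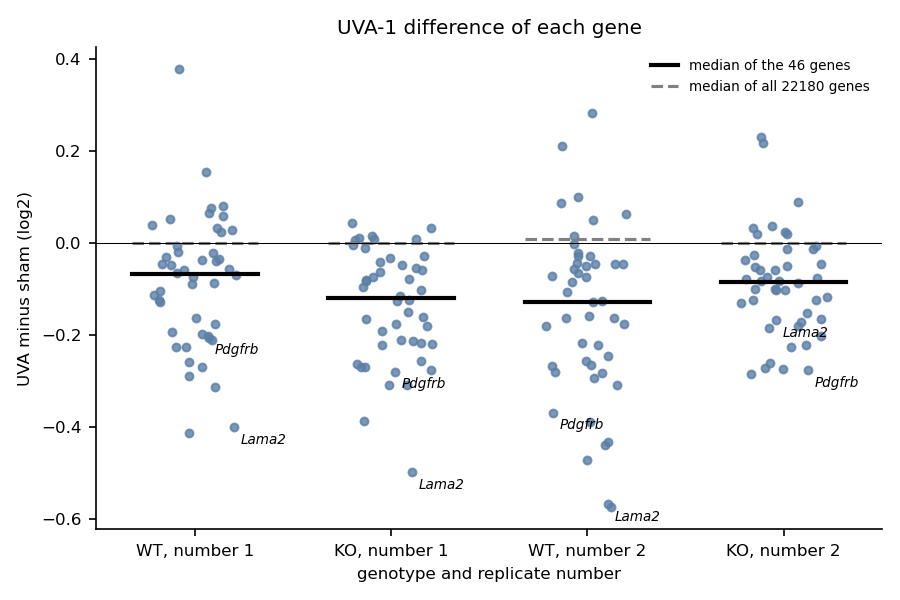
UVA minus sham of each of the 46 genes (points, log2, spread sideways for visibility) in each of the 4 cultures, with the median of the 46 (black bar) and of all 22180 genes (dashed grey bar). The black bars lie between -0.07 and -0.13, below the grey bars in every culture, and Lama2 is among the lowest points in 3 of the 4 cultures.

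Lama2 had the largest difference. UVA minus sham was -0.40 in WT and -0.50 in KO of number 1, and -0.57 and -0.17 in number 2, lower in 4 of 4 cultures. Pdgfrb, with the smallest adjusted p of the 46 in the culture-blocked fit given next, read 12.11 and 11.90 (WT sham, WT UVA) and 12.10 and 11.82 (KO) in number 1 and 10.60, 10.23, 10.94 and 10.66 in number 2, again lower in 4 of 4. Blocked by replicate number, limma called 0 of the 46 (3 of all genes, 0.0135%). Lama2 (-0.41, SE 0.13, adjusted p = 0.716), Pdgfrb (-0.28, SE 0.10, 0.716) and Lamc1 (-0.14, SE 0.05, 0.718) were lower at an unadjusted p under 0.05, as were 2.66% of all genes, and 0 of the 46 were higher (3.88%). With each culture as a block, so that genotype differences that vary between the numbers do not enter the error, limma called 2 of the 46 among 97 of all genes (0.437%). Lama2 fell by 0.41 (SE 0.06, adjusted p = 0.0496) and Pdgfrb fell by 0.28 (SE 0.04, adjusted p = 0.0485) in that fit. It has 2 residual degrees of freedom, both values sit at the threshold, and 0 of the 46 and 0 of all genes were called when any 1 of the 4 cultures was left out (smallest adjusted p for Lama2 or Pdgfrb 0.527).

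At an unadjusted p under 0.05, 22 of the 46 were lower in the culture-blocked fit (6.17% of all genes) and 0 higher (6.44%); without 1 culture 20 (WT 1; 4.13% of all genes), 9 (KO 1; 3.86%), 12 (WT 2; 3.53%) or 11 (KO 2; 4.94%) were lower. S100a4 (-0.31, SE 0.05, adjusted p = 0.0575) and Col12a1 (-0.31, SE 0.06, 0.0665) came next. S100a4 was lower after UVA by -0.41 and -0.31 in number 1 and by -0.44 and -0.08 in number 2. By role, the median differences were -0.18 for collagen VI (Col6a1 -0.19, Col6a3 -0.18, Col6a2 -0.12), -0.17 for other interstitial collagens (Col8a1 -0.17, Col14a1 -0.13), -0.16 for basement membrane genes (Col15a1 -0.19, Col4a1 -0.18) and -0.11 for fibrillar collagens (Col5a1 -0.20, Col1a2 -0.14, Col3a1 -0.12). They were -0.10 for adhesive glycoproteins (Postn -0.12, Fn1 -0.11, Tnc -0.11), -0.10 for transcription factors (Prrx1 -0.15, Twist2 -0.10, Twist1 -0.07) and -0.11 for surface markers (Pdgfra -0.14). Elastic fibre and crosslinking genes gave -0.06 (Loxl1 -0.15, Lox -0.12, Fbln2 -0.07) and the small proteoglycans -0.02 (Dpt -0.09, Dcn -0.07, Ogn 0.08). None of the genes in these parentheses passed in either fit.

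In WT alone 39 genes and in KO alone 43 read lower after UVA, each with a median of -0.11, and limma with the number as a block called 0 of the 46 in WT (0.00451% of all genes) and 0 in KO (0.00902%). At an unadjusted p under 0.05 it gave 1 gene, Lama2 (-0.49, SE 0.18), in WT and 0 in KO (3.94% and 4.02% of all genes). With the culture as a block it called 0 of the 46 in either genotype (0.0541% and 0.00902% of all genes), and 14 in WT and 13 in KO were lower at that unadjusted level (4.14% and 4.42%). Whether UVA acted differently in KO was tested as an interaction, for which 23 differences were positive and 23 negative, with a median of -0.0003. Of the 46, 0 were called (0% of all genes) and 0 had an unadjusted p under 0.05 (2.06% of all genes); with the culture as a block 1 had (3.45%), Col5a2 (-0.34, SE 0.15, adjusted p = 1). In the fit with the number as a block the same difference had an SE of 0.23, so these values do not show that the genotypes responded alike.

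Genes of 2 related lists were read beside the 46. Of 24 measured enzymes and chaperones of collagen processing, 15 had a positive averaged KO minus WT difference, 0 passed, 3 were higher at an unadjusted p under 0.05 (4.93% of all genes), and the median was 0.13 (-0.03 in number 1 and 0.25 in number 2). Creb3l1, a transcription factor for collagen secretion genes, differed by -0.03 in number 1 and 0.93 in number 2. Of 29 further genes of dermal fibroblasts, 24 were positive, 0 passed, 9 were higher at that unadjusted level (the same 4.93%), and the median was 0.17 (0.12 and 0.21). In 21 of the 29 all number 1 arrays exceeded all number 2 arrays (15.5% of all genes). Aspn, the gene for the proteoglycan asporin, named after its values were seen, read 11.45 to 11.65 in number 1 and 5.36 to 6.66 in number 2. Sfrp2, a secreted Wnt modulator, read 7.95, 8.09, 8.39 and 8.41 in number 1 and 6.82, 6.75, 8.69 and 8.49 in number 2, the largest genotype difference of these 29.

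Melanocyte genes ran in the opposite order to the matrix genes. Of 16 measured, 15 had all number 1 arrays below all number 2 arrays (16.6% of all genes), 14 had both KO arrays below both WT arrays in number 2 (26.3%), and 13 had the full inverse order (8.48%). Over the 16 the median of KO minus WT was 0.01 within number 1, and -0.37 within number 2. Their summed linear intensity averaged 63481 in WT and 64568 in KO of number 1, and 117230 in WT and 99181 in KO of number 2. For the 46 matrix and fibroblast genes the same sums were 250096, 247480, 97004 and 150620. So the culture lowest in matrix signal, number 2 WT, was the highest in pigment cell signal, and in number 1 neither sum separated the genotypes. The part of the cell types' shares in the genotype difference was not tested. Averaged over both numbers, 14 of the 16 melanocyte genes were lower in KO, 0 passed, 4 were lower at an unadjusted p under 0.05 (3.95% of all genes), and the largest differences were those of the endothelin receptor Ednrb (-0.61) and the melanocortin receptor Mc1r (-0.54).

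**Figure D5:**
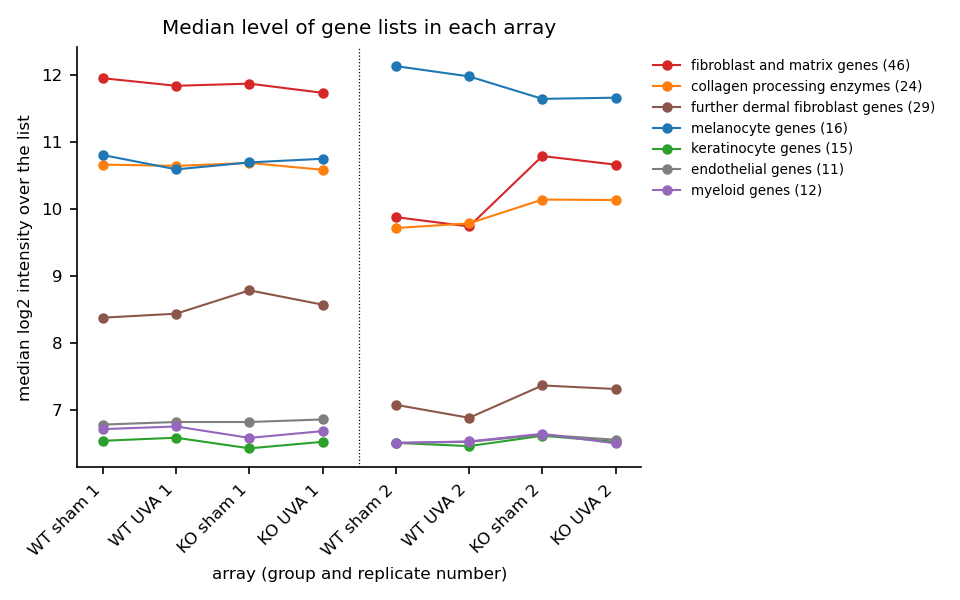
Median log2 intensity over each gene list (number of measured genes in brackets) in each of the 8 arrays, number 1 left and number 2 right of the dotted line; lines join arrays of a number only to guide the eye, and heights of different lists are not comparable because probe sets differ in brightness. The matrix and fibroblast genes lie at 11.74 or more in number 1 and at 9.74 in WT UVA of number 2, the melanocyte genes lie lower in number 1 than in number 2, and the keratinocyte, endothelial and myeloid lists stay between 6.43 and 6.86.

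Markers of other cells that a skin culture could hold were read in the same way. The summed intensity was 1647 to 2352 for 15 keratinocyte genes, 1792 to 2335 for 11 endothelial genes, 1160 to 1345 for 10 skeletal muscle genes and 1531 to 3148 for 12 myeloid genes. Ptprc, the general leukocyte marker, read 4.86 to 5.09, while Lyz2, a lysozyme of myeloid cells, read 10.75 and 10.60 in KO of number 2 and 8.02 to 9.12 elsewhere. The mural and smooth muscle list followed the matrix order in its sum. Its 12 genes summed to 11968 to 12757 in WT and 10216 to 10245 in KO of number 1, and to 4141 to 5148 in WT and 7599 to 9093 in KO of number 2. Within number 2 all 12 were higher in KO on average, 7 of them with both KO arrays above both WT arrays (20.4% of all genes). Within number 1, 10 of the 12 were lower in KO on average (10889 of all 22180 genes), with a median of -0.22. In KO, 7 of the 12 were higher in number 2 than in number 1 (11150 of all 22180 genes). Only 2 of the 12 had the full matrix order across the 8 arrays (6.36%). Acta2 and Tagln, smooth muscle proteins that activated fibroblasts also make, differed by 0.94 and 1.31 between the genotypes in number 2. The 9 Schwann cell genes summed to 2663 to 2872 in WT and 3877 to 4211 in KO of number 1. In number 2 they summed to 7046 to 7268 over both genotypes. Within number 1 their median KO minus WT was 0.25, with 7 of the 9 positive, and within number 2 it was 0.07. Of these 6 lists 0 genes passed in the averaged genotype comparison, and their part in the matrix differences was not tested.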

How the data were processed

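RNA from 8 mouse melanocyte samples was measured on Affymetrix whole-transcript arrays. The deposited values are RMA signals on a linear intensity scale, whole numbers from 7 to 22585, made with Affymetrix Expression Console 1.3.1.187 per the submitters' processing notes. The genome build is not given in the sources used here. A log2 scale had been planned for, so log2 of the deposited intensity was taken. Of 41345 probe sets, 23521 carried 1 symbol, 1814 several and 16010 none in the annotation table. Each gene took its single-symbol probe set with the highest mean, giving 22180 genes; 1082 genes, 5 of them on the list, had more than 1.

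Groups were fitted together with limma 3.58.1 (R 4.3.3; lmFit, eBayes with a variance trend), the replicate number as a block, Benjamini-Hochberg adjustment over all genes, two-sided, threshold 0.05. The numbers were taken as pairs because the labels carry the numbers 1 and 2 in all 4 groups. Same-numbered arrays also deviated from their groups' means together (r of 0.80 to 0.92 across genes for the 6 pairs of groups). The scripts were tested on simulated data. Alternatives were no block, the culture as a block, dim genes left out, the mean of a gene's probe sets, centring on array medians, a pseudocount of 16, no variance trend, averaged sham and UVA arrays, and each array left out. Leaving out each culture was added after seeing the data. The members, roles and other lists were chosen with earlier results of these data known, so no list was tested as a set. Values are given for the 3 largest differences per role and for every called gene. Of other lists, only some genes are named. The keratinocyte, endothelial, skeletal muscle and Schwann cell lists are described without naming any gene, so their largest differences are not shown. Promoters are from RefSeq (GRCm38.p6). Tables and figures were made in Python 3.11.15 with pandas 2.3.3 and matplotlib 3.10.9.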

Additional observations from a re-analysis of the deposited data

Results flagged for a closer look

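Col15a1 had a genotype difference of opposite sign after the 2 treatments: KO minus WT was 0.04 after sham and -0.24 after UVA on average, so that the difference between them was -0.28. In number 1, WT and KO read 7.52 and 7.58 after sham, and 7.21 and 7.19 after UVA. In number 2 they read 7.81 and 7.84 after sham, and 8.02 and 7.55 after UVA. The averaged value after UVA thus came mostly from the number 2 pair. The interaction had an adjusted p of 1 by limma with the replicate number as a block. Groups of 2 arrays were too small for a search for single outlying arrays.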

How the results depend on the processing

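The count of called genes among the 46 was 0 in all 7 comparisons under the replicate block, under no replicate block and with each array left out (0 to 0). With the culture as a block it was 2 for UVA against sham averaged over genotypes, Lama2 (-0.41) and Pdgfrb (-0.28), and 0 when any culture was left out, an alternative added after seeing the data that leaves 1 residual degree of freedom. The median genotype difference stayed positive over all alternatives, each of which kept arrays of both numbers. It ran from 0.27 to 0.61 averaged over treatments, 0.11 to 0.70 after sham and 0.08 to 0.82 after UVA. Within number 1 alone the median averaged over treatments was -0.03, and within number 2 alone it was 0.87. Averaged over genotypes, the median UVA difference ran from -0.28 to 0.06. Its sign turned without KO UVA 1 (0.01), KO sham 2 (0.01) or WT UVA 2 (0.06). With the culture as a block and any 1 culture left out, it was -0.12 to -0.09. By genotype it ran from -0.48 to 0.20 in WT and from -0.43 to 0.22 in KO. The interaction median ran from -0.32 to 0.35. Over all genes, the averaged genotype comparison called 7, 6 to 9 under the other blocked settings on 8 arrays, and 0 without the block, with averaged arrays or without any 1 array; the cause was not tested.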
